A study of Zea mays with 24 samples.

Results

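The comparison described here sets the sorted cortex of the maize (Zea mays) root tip against the equally weighted mean of the other 4 sorted tissues, which are epidermis, endodermis, stele and quiescent center. It uses 15 of the 24 RNA sequencing libraries of the study, 3 from cortex and 12 from the other tissues, chosen by their labels alone. All plants were 7 days after germination and grew at 26 °C in a cycle of 12 h light and 12 h dark. Cortex, epidermis and stele came from wild-type B73, as protoplasts (cells freed of their walls by digestion) that were stained for 15 min with the dyes syto 40 and syto 81 and sorted by flow cytometry. Endodermis was sorted from a ZmSCR::RFP line and quiescent center from a ZmWOX5::RFP line, both labelled B73/Hi-II, with a red fluorescent protein driven by the named promoter. Whether each reporter line was 1 transformation event is not given in the sources used here. Tissue, line and sorting method therefore cannot be told apart when cortex is set against endodermis or quiescent center, whereas cortex, epidermis and stele share line and sorting method. Dissected root cap, unsorted protoplasts without cap and intact tips without cap, all wild-type B73 with 3 libraries each, lie outside the comparison and are used as outside references. They also enter the filter on low values and the fit, where they add to the estimate of the spread per gene.

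The cortex is the part of the ground tissue between the epidermis and the endodermis, and in grasses such as maize it has many cell layers. It stores carbon, carries water and ions inward from the soil, and can form gas spaces under stress. In Arabidopsis, where the system was worked out, the transcription factor SHORT-ROOT moves from the stele into the adjoining layer, where it acts with SCARECROW to divide the ground tissue into endodermis and cortex. The series title places the study in that field, the control of ground tissue layers in monocot roots.

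The deposited values are gene counts divided by 1 size factor per library, called normalized values here. The identifiers are not paired with gene names in the deposited table, and 0 of 39510 matched the supplied reference table, so genes are given by identifier and no function is stated. For the same reason the tissue labels could not be checked against known marker genes. The 15 sorted libraries held 21978670 to 50289026 reads, with 34655095, 32624440 and 21978670 reads in cortex replicates 1, 2 and 3. A value of 0 allows up to 3 reads by counting error, which is 1.81 to 4.05 normalized units in the sorted libraries, and this floor covers counting error only. Zeros were most frequent in the quiescent center. There 33.9% of the 25555 genes tested were at 0 in at least 1 library, against 8.72% in the cortex and 4.88% to 12.8% in the other 3 sorted tissues. Cortex libraries were the most variable after those of the quiescent center, with a median standard deviation per gene of 0.66 on the log2 scale. It was 0.85 in the quiescent center and 0.37 to 0.47 in epidermis, endodermis and stele.

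Cortex replicate 3 stood apart from the other cortex libraries in genes of the inner tissues. To place the cortex without using cortex values, genes were taken whose lowest stele library was at least 2 log2 units above the highest epidermis library. In these 1602 genes the median log2(value + 1) was 3.99 and 3.91 in cortex replicates 1 and 2 but 5.95 in replicate 3. The epidermis libraries lay between 1.91 and 2.82 and the stele libraries between 7.34 and 7.71. On a scale from the epidermis mean at 0% to the stele mean at 100%, the median gene stood at 29.98%, 28.7% and 66.7% in cortex replicates 1, 2 and 3. Genes higher in the endodermis than in the epidermis by the same rule, 1700 in number, gave the same order, at 3.99, 3.70 and 5.82. The 769 genes higher in the epidermis than in the stele did not set replicate 3 apart, with medians of 7.69, 7.97 and 7.95 in the cortex libraries. For those genes the epidermis libraries lay between 9.07 and 9.18 and the stele libraries between 4.55 and 5.09, so that all cortex libraries lay nearer to the epidermis. Whether replicate 3 held more inner cells or its cells differed cannot be told apart in sorted bulk RNA, where the number of cells of a type and the RNA per cell are not separated. For several calls named below the value without this library is given. A call given without such a value is not thereby shown to hold without it.

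**Figure D1:**
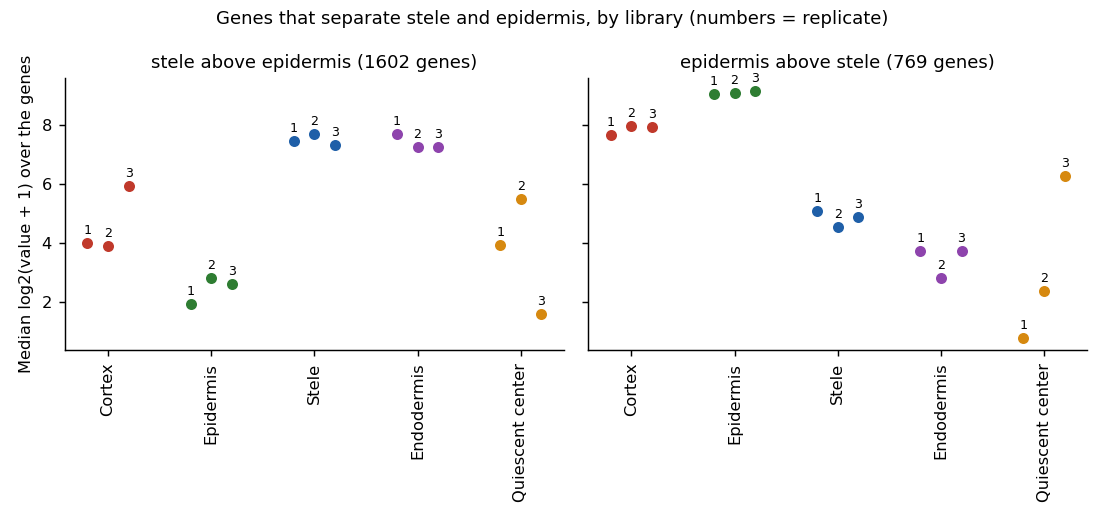
Median log2(value + 1) in each sorted library for the 1602 genes higher in stele than in epidermis (left) and the 769 genes higher in epidermis than in stele (right). Each point is a library with its replicate number beside it; cortex replicate 3 lies at 5.95 on the left, above cortex replicates 1 and 2 at 3.99 and 3.91, and within 0.3 of them on the right.

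Relative to the mean of the other 4 tissues, 1381 genes were higher and 734 lower in the cortex, which is 5.4% and 2.87% of the 25555 genes tested and 8.28% together. The test was limma on log2(value + 1), and a gene was called when its Benjamini-Hochberg adjusted p was below 0.05 and its log2 change was at least 1 in size. The median log2 change was 2.61 in the higher and −1.56 in the lower set, and 281 higher and 3 lower genes changed by 4 or more in size. A group at 0 in all its libraries gives a change that depends on the added 1, which touched 431 of the higher and 118 of the lower genes. With such groups set to the floor of 3 reads the medians were 2.40 and −1.45. The median change over all genes tested was 0.09, and −0.04 after quantile normalization, to which the changes of single genes are relative. Of the 100 genes with the highest mean value in the cortex, 34 were called higher and 0 lower. Cortex values chose these 100 genes and also enter the call, so nothing is read from this balance. The 1381 genes took 18.5% ± 1.41 of cortex reads and 17.6% ± 1.01 of epidermis reads (SD, n = 3). They took 8.05% ± 1.53 in the stele, 5.62% ± 0.02 in the endodermis and 3.43% ± 1.24 in the quiescent center (SD, n = 3). The same libraries chose the 1381 genes, so these shares are a description that follows in part from the call.

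The call rate rose with mean value for higher genes and showed no steady trend for lower ones. Among genes with a mean value below 30 over all 24 libraries, 2.67% were called higher, and among genes at 1000 or more, 9.51% were. The corresponding shares of lower calls were 2.76% and 2.53%. Between these classes they were 1.70% from 30 to 100, 2.63% from 100 to 300 and 4.10% from 300 to 1000. The mean includes the cortex libraries, so class and call are not independent. The 126 tested identifiers that begin with GRMZM5G included 0 higher and 0 lower calls, with a median log2 change of −0.44, beside 5.4%, 2.87% and a median of 0.09 over all genes tested.

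**Figure D2:**
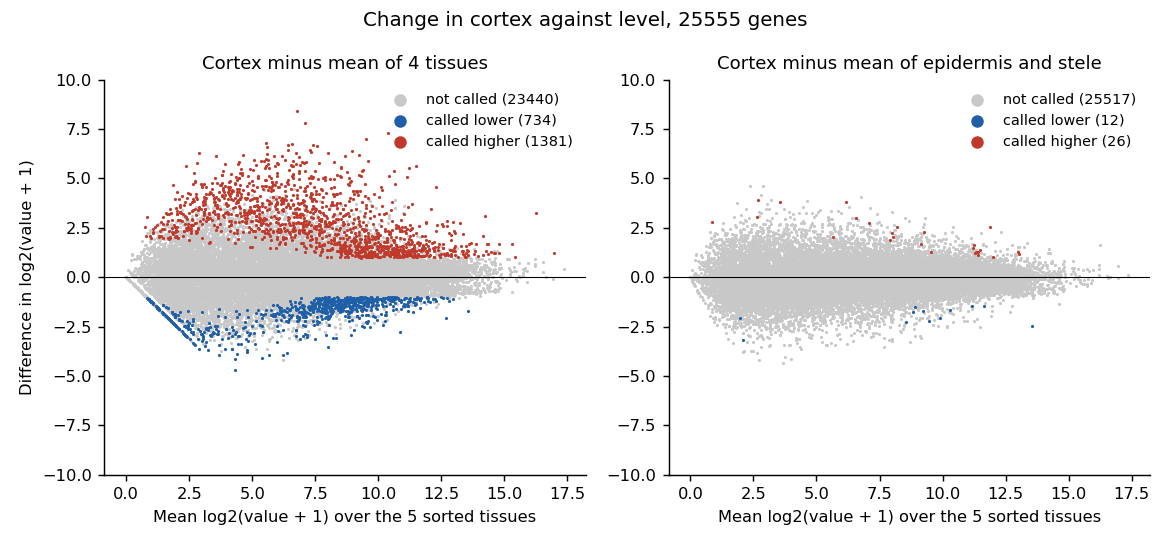
Difference in log2(value + 1) between cortex and the mean of the other 4 sorted tissues (left) and between cortex and the mean of epidermis and stele (right), against mean log2(value + 1) over the 5 sorted tissues; each point is 1 of 25555 genes. On the left 1381 genes are called higher and 734 lower, on the right 26 and 12.

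The cortex was seldom set apart from every other tissue at once. Over all genes tested the cortex had the highest of the 5 tissue means in 15.8%, the lowest in 12.5% and the middle one in 27.9%. Of the 1381 higher genes, 822 had their highest mean in the cortex and 528 had it second. Of the 734 lower genes, 454 had their lowest mean in the cortex. Every cortex library lay above all 12 libraries of the other tissues in 197 of the higher genes, and below all 12 in 64 of the lower genes. Over all genes tested such separation held for 1.24% upward and 0.485% downward, 1.72% together. The counts among called genes follow in part from the call, which uses the same values. In no gene tested did all cortex libraries reach 10 while all 12 other libraries stayed at or under the floor of 3 reads. No gene showed the opposite pattern, with all 12 others at 10 or more, either.

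The 4 differences that make up the mean were unequal in size. All 4 share the cortex libraries, and each is 1 of the 4 equal parts of the change that chose the genes, so they are given as a description. For the 1381 higher genes the median log2 difference was 0.46 from epidermis, 1.77 from stele, 3.13 from endodermis and 4.72 from quiescent center. Over all genes tested the corresponding medians were 0.05, −0.08, −0.01 and 0.49. With the 401 higher genes that were at 0 in all quiescent center libraries set to the floor, the median difference from that tissue was 4.14. The epidermis was the nearest tissue for 970 of the 1381 genes (70.2%), beside 38.6% of all genes tested. The quiescent center was the farthest for 926 (67.1%), beside 58.5% of all genes tested. For the 734 lower genes the median differences were −0.79, −0.97, −1.24 and −2.90 in the same order, and the quiescent center was farthest for 549 (74.8%), beside the same 58.5%.

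**Figure D3:**
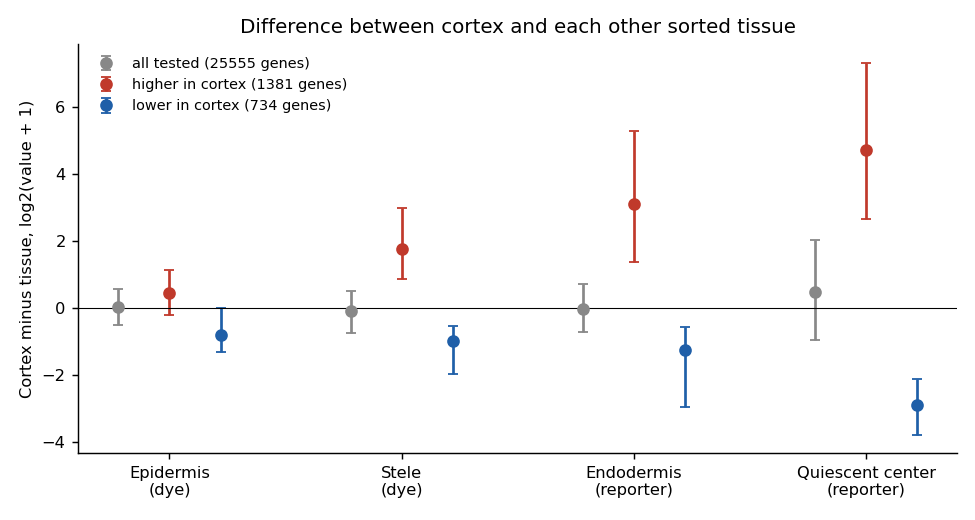
Cortex minus each other sorted tissue in log2(value + 1), as the median over genes with bars from the lower to the upper quartile. For genes higher in cortex the median is 0.46 against epidermis and 4.72 against quiescent center; for genes lower in cortex it is −0.79 and −2.90.

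Zm00001d036072 rose the most of the called genes that reached a cortex mean of 100 and had no overlap between cortex and other libraries. Its normalized values were 13837, 13058 and 8679.5 in the cortex and 1286, 2369 and 1572 in the epidermis. In the stele they were 84.9, 184 and 1593, in the endodermis 19.8, 0 and 0, and in the quiescent center 0 in all 3 libraries. No library of another tissue reached the cortex range, and stele replicate 3 was far above the other stele libraries. The log2 change was 8.41 (SE 0.76, limma adjusted p = 7.11e-07). Against the floor of 3 reads per library it was at least 4970-fold higher than in the quiescent center. Against epidermis alone the difference of 2.78 (SE 0.96) did not pass (limma adjusted p = 0.177). Outside the comparison the gene was at 1502 ± 228 in intact tips, 823 ± 186 in unsorted protoplasts (SD, n = 3) and 0 in all 3 root cap libraries.

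Zm00001d043731 followed, at 5149.5, 3501 and 3623 in the cortex and 1217, 993 and 1215 in the epidermis. Stele libraries were at 136, 67.3 and 1243, endodermis libraries at 2.84, 6.64 and 15.0, and quiescent center libraries at 0. As for the gene before, the third stele library was the high one and no library overlapped the cortex. The log2 change was 6.74 (SE 0.59, limma adjusted p = 5.57e-07). Unlike that gene it was present in the root cap, at 621, 1512 and 556.

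Among genes that fell, Zm00001d042932 was at 1.06, 2.00 and 5.40 in the cortex, that is, at about the level of a few reads. It was at 72.5, 20.2 and 13.3 in the epidermis, 49.2, 29.9 and 14.0 in the stele and 19.1, 7.24 and 7.88 in the endodermis. Its highest values were in the quiescent center, at 315, 516 and 955, and in the root cap it was at 218 ± 52.2 (SD, n = 3). All cortex libraries were below all others of the 5 tissues, although the lowest endodermis value was close. The gene fell by 3.79 on the log2 scale (SE 0.66, limma adjusted p = 0.00101). Zm00001d037988 was similar, with 3.19, 1.00 and 0 in the cortex and 334, 662 and 63.7 in the quiescent center. In the epidermis it reached 3.67, 5.05 and 14.3, so that the groups were separated by less than 1 unit. It fell by 3.63 (SE 0.88, limma adjusted p = 0.0116). Without cortex replicate 3 it fell by 3.12 (limma adjusted p = 0.0729) and without the quiescent center it fell by 2.54 (limma adjusted p = 0.0879). In both fits the call was lost.

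By Pearson correlation of the 8 group means of log2(value + 1), Zm00001d035300 (r = 0.991) and Zm00001d022284 (r = 0.99) were most like Zm00001d036072. Zm00001d035300 was at 3349, 2413 and 2334 in the cortex and 728, 1720.3 and 835 in the epidermis. Zm00001d022284 was at 2217, 796 and 2195 in the cortex and 1841, 1685 and 518 in the epidermis, and these libraries overlapped. Both were called higher against the mean of 4. Most like Zm00001d042932 were Zm00001d042640 (r = 0.986) and Zm00001d033955 (r = 0.984), neither of them called. Zm00001d042640 was at 146, 651 and 139 in the cortex, with replicate 2 within the range of the other tissues. Group means share libraries and depth, and a high correlation over 8 points is found by search among 25555 genes.

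**Figure D4:**
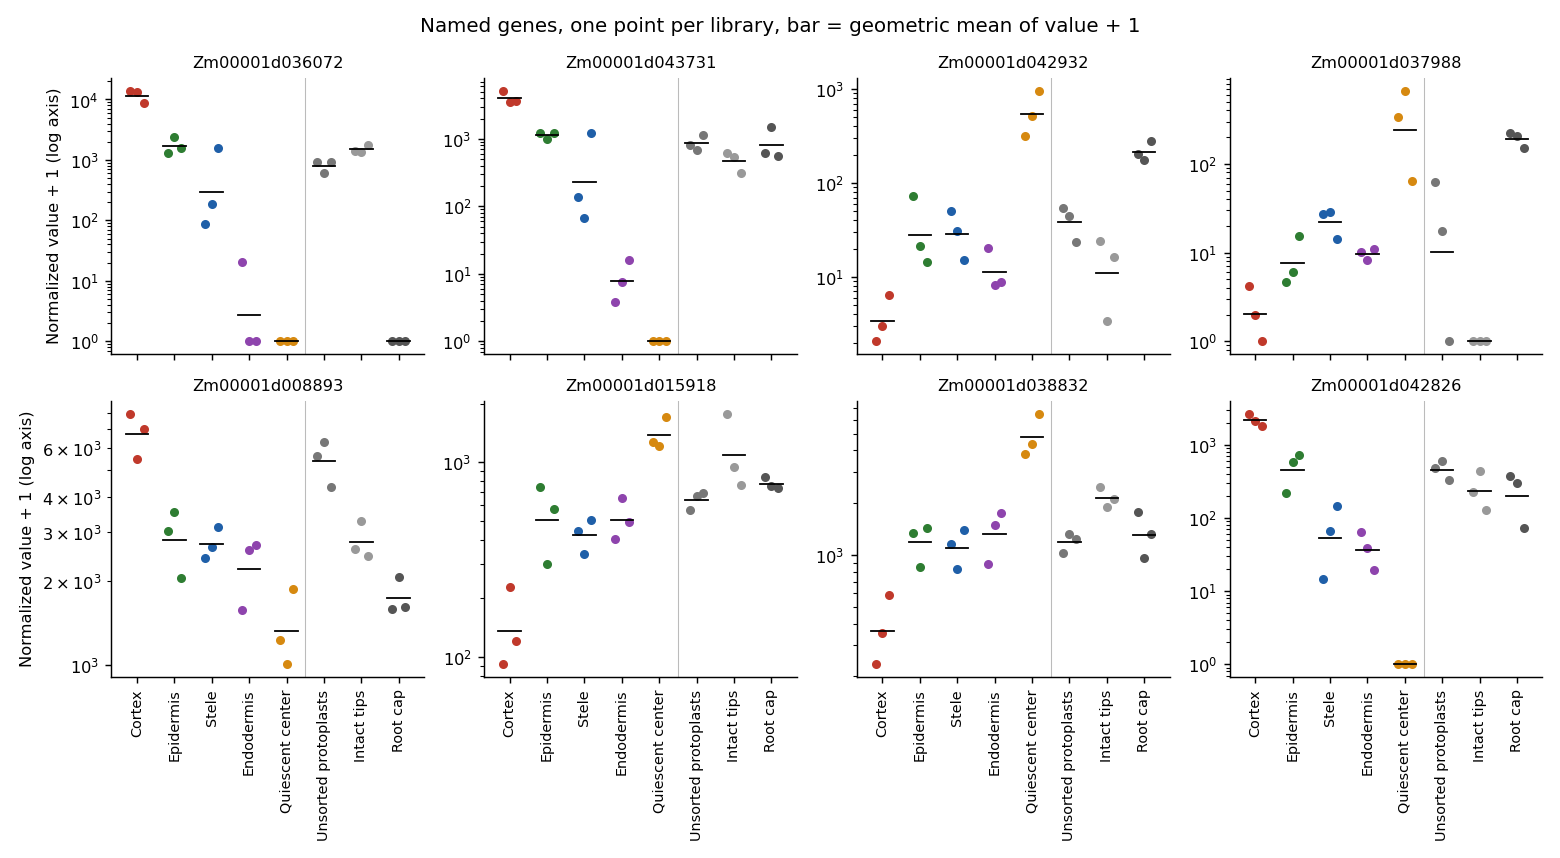
Normalized value + 1 on a log axis for 8 named genes in all 24 libraries; points are libraries and bars the geometric mean of value + 1 per group, with sorted tissues left of the grey line. Zm00001d036072 and Zm00001d043731 are highest in cortex and at 0 in the quiescent center, and Zm00001d008893 is the gene called above each other sorted tissue singly.

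Called beyond each of the other 4 tissues singly, in the same direction, were 1 gene upward and 4 downward, 0.00391% and 0.0157% of genes tested and 0.0196% together. The 4 tests share the cortex libraries, so this is a stricter rule and not an overlap of independent lists. Zm00001d008893, the gene that was higher, was at 7942, 5479 and 7039 in the cortex. It was at 3019, 3527 and 2051 in the epidermis and 2428, 2645 and 3129.7 in the stele. The endodermis had 1573, 2582 and 2687, and the quiescent center 1234, 1005 and 1868. No library overlapped the cortex, and the log2 differences ran from 1.27 (SE 0.27) against epidermis to 2.35 (SE 0.27) against quiescent center. In unsorted protoplasts it was at 5434 ± 989 (SD, n = 3), 0.33 log2 units below the cortex (SE 0.27, limma adjusted p = 0.506).

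The 4 genes below every other tissue were present in the cortex at a lower level. Zm00001d015918 was at 90.5, 226 and 120.2 in the cortex, with its lowest other value at 297 in the epidermis. It fell by 2.19 on the log2 scale (SE 0.30, limma adjusted p = 0.000114). Zm00001d038832 was at 232, 354 and 583, against 825 or more in every other sorted library, and fell by 2.21 (SE 0.27, limma adjusted p = 3.68e-05). Zm00001d026397 and Zm00001d047612, which complete the count and were named after their values were seen, had log2 changes of −1.94 (SE 0.29) and −2.05 (SE 0.31). All 4 had their highest sorted mean in the quiescent center, from 861 ± 357 for Zm00001d026397 to 4882 ± 1421 for Zm00001d038832 (SD, n = 3). The count of 5 was 0 without cortex replicate 1, without epidermis replicate 1 or 3, and without stele replicate 1. It was 3 without stele replicate 2, 9 and 8 without quiescent center replicates 1 and 3, 11 without cortex replicate 3 and 33 without cortex replicate 2.

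Within the dye-sorted tissues, which share cultivar, genotype and sorting method with the cortex, few genes were called. Against the mean of epidermis and stele there were 26 genes higher and 12 lower, 0.102% and 0.047% of genes tested and 0.149% together. The unadjusted p was below 0.05 in 2195 genes. Zm00001d042826 was at 2648, 2128 and 1799 in the cortex, 218, 576 and 734 in the epidermis and 13.6, 66.3 and 148 in the stele. Its log2 difference was 3.81 (SE 0.67, limma adjusted p = 0.0294), and 3.94 without cortex replicate 3 (limma adjusted p = 0.057). Zm00001d040997 was at 461, 391 and 236 in the cortex and 90.9, 71.8 and 80.7 in the epidermis, and no stele library exceeded 14.0. Its difference was 3.79 (SE 0.65, limma adjusted p = 0.0268). For both genes the endodermis lay far below the cortex, and the quiescent center was at 0.

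Of the genes lower than in the other dye-sorted tissues, Zm00001d028998 was abundant throughout. It was at 5573, 6072 and 2862 in the cortex, 19367, 22799 and 24274 in the epidermis and 28784, 30429 and 28148 in the stele. It fell by 2.46 against their mean (SE 0.38, limma adjusted p = 0.0134), and fell by 2.12 without cortex replicate 3 (limma adjusted p = 0.0535). Endodermis libraries, at 15232, 4053 and 3885, overlapped the cortex, and so did unsorted protoplasts at 5678 ± 549.6 (SD, n = 3). Zm00001d034062 was at 89.4, 246 and 226 in the cortex, 1374, 919.8 and 1345 in the epidermis and 576, 544 and 462 in the stele. It fell by 2.21 (SE 0.44, limma adjusted p = 0.0485), and its adjusted p was above 0.05 without each of 8 of the 9 libraries compared, up to 0.422 without cortex replicate 1.

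The total of 38 within the dye-sorted tissues moved with single libraries. It was 0 without cortex replicate 1, and 260, with 54 higher and 206 lower, without cortex replicate 2. Leaving out epidermis replicates 1, 2 and 3 gave 6, 25 and 9, and leaving out stele replicates 1 and 2 gave 6 and 5. The fit of these 3 tissues alone gave 152 higher and 58 lower. Of the 1381 genes higher against the mean of 4, 801 had a difference of at least 1 from the dye-sorted mean, beside 8.01% of all genes tested, and 26 were called there. Of the 734 lower genes, 324 were lower by at least 1, beside 9.61% of all genes tested, and 12 were called. The dye-sorted mean is a part of the mean of 4 by which these genes were chosen, so nothing is read from these counts.

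Set against the reporter-sorted mean of endodermis and quiescent center, the cortex was higher in 3491 genes and lower in 2132, 13.7% and 8.34% of genes tested and 22% together. With quantile normalization the balance turned to 2978 higher and 3252 lower. Without cortex replicate 1 there were 2397 and 1197, and without cortex replicate 3 there were 3066 and 2034. Zm00001d037041 led the higher genes, with 8818, 9087 and 13568 in the cortex, 5.67, 0 and 0 in the endodermis and 0 in the quiescent center. Its epidermis values were 10160.5, 12182 and 10161, which overlapped the cortex, and the stele was at 152, 167 and 372. The fitted difference from the reporter-sorted mean was 12.87 (SE 0.47, limma adjusted p = 3.81e-13), and against the floor the cortex was at least 4399-fold above the quiescent center. Zm00001d036072, described above, was next at 12.77 (SE 0.83).

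Zm00001d033972 was near 0 in all dye-sorted libraries, where its highest value was 1.07. In the endodermis it was at 627, 379 and 379.5 and in the quiescent center at 50.9, 45.8 and 305. Root tips, root cap and unsorted protoplasts, all wild-type B73, had at most 2.58. The gene was above the floor in all 6 libraries of the reporter lines and in none of the other 18. These 6 are also the only libraries of endodermis and quiescent center and the only ones sorted by reporter. Tissue, line and sorting cannot be told apart for this gene, and the cause was not tested. Zm00001d044374 was at 2.13, 0 and 0 in the cortex, 18.4, 51.9 and 53.0 in the endodermis and 1339, 1267 and 576 in the quiescent center. It was also present in the stele, at 54.3, 28.9 and 38.3, so it was not confined to the reporter lines. The log2 differences of these genes were −7.32 (SE 0.65) and −7.06 (SE 1.20).

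Taken singly, epidermis was the tissue with the fewest called differences from cortex. The cortex was higher in 186 genes and lower in 74, 0.728% and 0.29% of genes tested and 1.02% together. Zm00001d013699 was at 20.2, 143 and 708 in the cortex and 0.918, 1.01 and 1.02 in the epidermis, a difference of 6.03 (SE 0.82, limma adjusted p = 0.00172). Zm00001d023344 was at 20.2, 100.04 and 1261 in the cortex and 0, 3.03 and 4.08 in the epidermis. Both were highest in cortex replicate 3 and were at 639 to 1193 in the stele libraries. Without that replicate the differences were 4.80 for Zm00001d013699 (limma adjusted p = 0.00713) and 4.08 for Zm00001d023344 (limma adjusted p = 0.179), so the second call was lost. Zm00001d051810 and Zm00001d036364 went the other way. They were at 253, 135 and 129.7 and at 396, 239 and 166 in the epidermis, with no cortex library above 12.2. Without cortex replicate 3 Zm00001d051810 fell by 6.21 and was no longer called (limma adjusted p = 0.0623). Fitted alone, the 2 tissues differed in 3 genes, 0 of them higher in the cortex. The total of 260 was 211 without cortex replicate 3, 150 without cortex replicate 1, 600 without cortex replicate 2, and 38 and 165 when epidermis replicate 1 or 3 was left out.

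Against the stele 574 genes were higher and 581 lower, 2.25% and 2.27% of genes tested and 4.52% together. Zm00001d030468 was at 149, 72.0 and 158 in the cortex and 0 in all stele libraries, at least 42.0-fold higher against the floor. Zm00001d021048 was at 801, 1568 and 969.6 in the cortex but at 8599, 8086 and 6671 in the epidermis, with at most 12.1 in the stele. Zm00001d035689 was at 7808, 6216 and 5214 in the stele and at 0, 7.00 and 1615 in the cortex, where the third library alone was high. It fell by 8.07 on the log2 scale, and fell by 11.13 without cortex replicate 3 (limma adjusted p = 0.00101). Zm00001d052336 was at 1342, 1733 and 824 in the stele and 7.45, 0 and 64.8 in the cortex, again highest in replicate 3. The total of 1155 was 1224 without cortex replicate 3, 512 without cortex replicate 1, and 414 and 437 without stele replicates 1 and 2.

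Against the endodermis the cortex was higher in 1778 genes and lower in 1460, 6.96% and 5.71% of genes tested and 12.7% together, led upward by Zm00001d037041 and Zm00001d036072. Zm00001d045905 was at 2220.2, 1385 and 1309 in the endodermis and at 0, 0 and 25.7 in the cortex. Zm00001d038177 was at 1244, 2673 and 1879.7 in the endodermis and at 1.06, 2.00 and 12.2 in the cortex. Both were also found in the stele, at 161 to 513 and 78.1 to 172, and both had their highest cortex value in replicate 3. Without that replicate the cortex was higher in 1685 genes and lower in 1535.

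The quiescent center gave the most calls, 6342 higher and 3811 lower in the cortex, 24.8% and 14.9% of genes tested and 39.7% together. Quantile normalization turned this balance to 4819 and 5216, and the fit of these tissues alone gave 3139 and 1920. Without cortex replicate 3 there were 5649 and 3465. Zm00001d007700 was at 91939, 78434 and 57848 in the cortex and Zm00001d051362 at 74272, 48455 and 36127, both with 0 in every quiescent center library. Against the floor they were at least 31963-fold and 21671-fold higher, bounds that cover counting error only. Zm00001d007700 was also at 2332, 2037 and 18075 in the stele, again highest in the third stele library, and at 0 in 2 of 3 root cap libraries. Zm00001d014016, at 6287, 5423 and 3664 in the quiescent center, was at 0, 0 and 6.75 in the cortex. Zm00001d028471, at 4999, 4417 and 1242 there, was at 2.13, 1.00 and 1.35 in the cortex.

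The called genes were then read in the groups outside the comparison. For the 1381 higher genes the median log2(value + 1) was 10.25, 9.99 and 9.91 in the cortex libraries and 9.51 to 9.84 in the epidermis. It was 8.84 to 8.88 in unsorted protoplasts, 8.83 to 9.07 in intact tips and 8.76 to 8.96 in the root cap. Stele libraries were at 7.72, 7.87 and 8.47, endodermis libraries at 6.35 to 6.86 and quiescent center libraries at 3.35, 4.18 and 6.29. The outside groups thus lay between the epidermis and the stele, and replicate 3 of stele and of quiescent center were the highest of their groups. For the 734 lower genes the cortex libraries were at 6.38, 6.76 and 7.04 and all other libraries at 7.21 or above. Over all 8 groups the cortex had the highest mean in 492 of the 1381 higher genes (35.6%), beside 7.59% of all genes tested. It had the lowest mean in 370 of the 734 lower genes (50.4%), beside 5.87% of all genes tested. The sorted libraries chose these genes, so the order among them and part of both shares follow from the call.

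**Figure D5:**
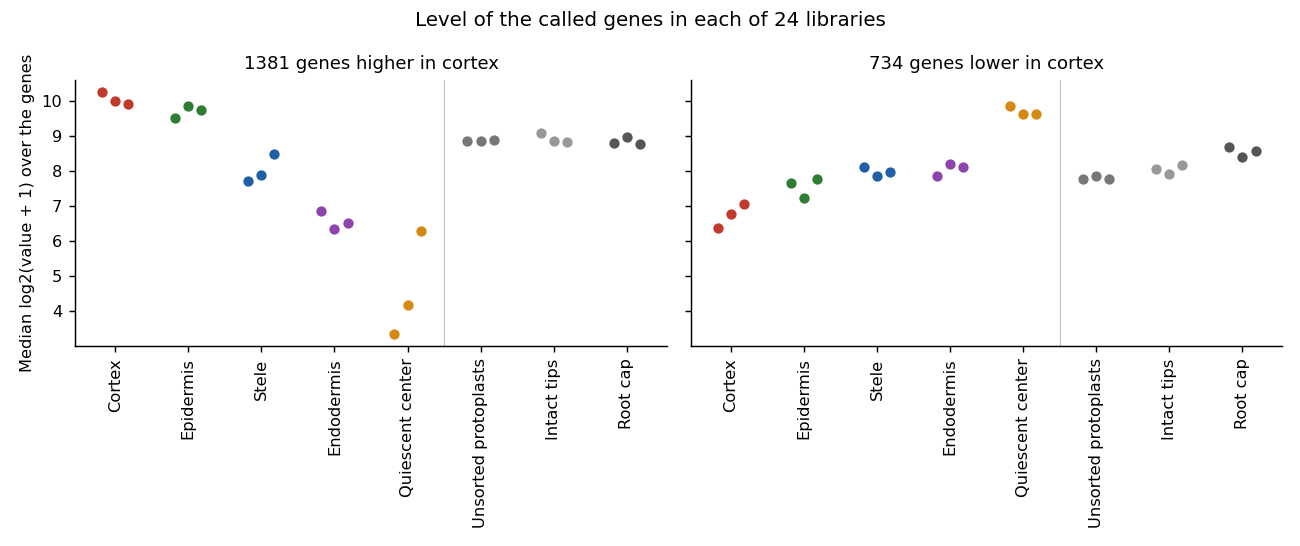
Median log2(value + 1) over the 1381 genes higher in cortex (left) and the 734 genes lower in cortex (right) in each of the 24 libraries, with sorted tissues left of the grey line. Unsorted protoplasts, intact tips and root cap lie between 8.76 and 9.07 on the left, below epidermis and above stele.

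Compared directly with unsorted protoplasts without cap, 1192 genes were higher and 352 lower in the cortex, 4.66% and 1.38% of genes tested and 6.04% together. The median difference over all genes was 0.22, and quantile normalization, which moved it to −0.09, gave 719 and 570. The 2 leading genes were root cap genes by level. Zm00001d041984 was at 1753, 1499 and 3546 in the cortex and at most 1.05 in unsorted protoplasts. In the dissected root cap it reached 186950.0, 466985 and 215233, and intact tips without cap had 133, 53.6 and 19.8. Zm00001d041985 was at 807, 634 and 1098 in the cortex, 0 in unsorted protoplasts and 61996, 138125 and 69072 in the root cap. Both were also present in the epidermis, at 399 to 2209.6 and 181 to 608. In stele replicate 3 they were at 512 and 267, and in quiescent center replicate 2 at 1998 and 1053, within the cortex range. The other 2 quiescent center libraries had at most 40.2, and both genes were among the 1381 genes higher against the mean of 4. The labels state removal of the cap only for the unsorted protoplasts and the intact tips.

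Genes of the cap were therefore read as a list, those whose lowest cap library was at least 2 log2 units above every library of intact tips and unsorted protoplasts. In the 789 such genes the median log2(value + 1) was 4.94, 3.91 and 4.41 in the cortex, 4.35 to 4.87 in the epidermis and 3.91 to 4.48 in the stele. The endodermis had 4.33, 2.54 and 3.15, and the quiescent center 0, 4.93 and 0, so that the median of its replicate 2 was as high as in the cortex. Of these genes 250, 195 and 209 reached 100 in cortex replicates 1, 2 and 3, and 229, 286 and 180 in those of the quiescent center. In the same order the numbers were 263, 264 and 254 in the epidermis and 183, 207 and 169 in the stele. They were 224, 120 and 136 in the endodermis, 165, 154 and 158 in unsorted protoplasts and 86, 74 and 119 in intact tips. The rule that set the list required unsorted protoplasts and intact tips to lie below the cap. Their low numbers therefore follow from the rule and are not a baseline for the sorted tissues. In the comparison with the mean of 4, 86 of the 789 were called higher and 13 lower, with a median change of 0.28. The corresponding counts over all genes tested were 1381 (5.4%) and 734 (2.87%) of 25555, with a median of 0.09. The groups that set the list also enter the filter and the fit, so all genes tested are not a matched baseline. The part of cap RNA in the cortex calls was not tested.

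Among genes below the unsorted protoplasts, Zm00001d027540 was at 0, 12.0 and 666 in the cortex and 3002, 3615 and 3489 in protoplasts. Zm00001d027539 was at 2.13, 11.004 and 848 in the cortex and 1566, 1182 and 1603 in protoplasts. In both the third cortex library was far above the others. Both genes were present in stele and endodermis, and in epidermis replicate 2 at 357 and 103. Against protoplasts Zm00001d027540 fell by 7.35 and Zm00001d027539 fell by 5.50, and without cortex replicate 3 they fell by 9.86 and fell by 7.87. Without cortex replicate 3 the total of 1544 was 935, and without cortex replicate 1 it was 476.

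The total of 2115 against the mean of 4 depended most on cortex replicate 1. Without it 773 genes were called, 610 higher and 163 lower, of which 755 were among the 2115. Without cortex replicate 2 there were 2080, sharing 1370 with the full set, and without cortex replicate 3 there were 1956, sharing 1488. The direction of the left-out library was then read. Of the 610 higher genes called without cortex replicate 1, 583 lay at least 1 log2 unit above the mean of the 4 tissues in that replicate, beside 26.2% of all genes tested. For the 1150 higher genes called without replicate 2 and the 1181 called without replicate 3, these numbers were 821 and 854, beside 20.7% and 23.5%. For lower genes the numbers were 271 of 930 for replicate 2, beside 21.3% of all genes tested, and 279 of 775 for replicate 3, beside 13.9%. For replicate 1 it was 138 of 163, beside 18.9%. The tissue libraries that chose the genes also enter these differences, so the left-out library is the only part not used. The shares over all genes tested are therefore not a matched baseline. Without the quiescent center, the other 3 tissues gave 919 higher and 382 lower, of which 915 were among the 2115. The 15 sorted libraries fitted alone gave 1309 higher and 767 lower, of which 1664 were among the 2115. On recovered reads edgeR gave 1805 higher and 374 lower, and quantile normalization of the values gave 1364 and 1124.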

How the data were processed

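The deposited table holds 1 normalized value per gene and library, a signal made by the authors as gene counts divided by 1 size factor per library. Trimmomatic, kallisto 0.43 and DESeq2 are listed, per the submitters' processing notes. Genome build and annotation are not given in the sources used here, and 8 columns of group averages were not used. Dividing each library's values by its smallest step gave whole reads for 100% of values (tolerance 0.01), so reads were recovered. In 5 libraries that step was within 0.02 of 1, where the test is weak. Genes with near-identical copies carry uncertain values. Libraries of a group differed beyond sampling noise. Separate plants or sorts are not stated for the replicates, so p-values rest on the spread among these samples alone, which may be technical. Replicate numbers are those of the titles, since replicate 3 of cortex, epidermis and stele has a 2 in its description.

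Genes at 10 or more in at least 3 of 24 libraries were tested (25555 of 39510). Values were transformed as log2(value + 1), which understates the change of low genes, then modelled by limma 3.58.1 (R 4.3.3) with 1 mean for each of the 8 groups and a prior variance that follows the level, and adjusted over all genes tested. Alternatives used edgeR 4.0.16 and DESeq2 1.42.0 on recovered reads, other pseudocounts, filters, scalings, weights, subsets of libraries and each library left out. The steps were tested on simulated counts in which all groups had the same spread. The unequal spread of the real groups was therefore not covered by that test. Per comparison, up to 2 called genes in each direction are named, by size of change, if the higher side averaged 100 or more and no cortex library overlapped the libraries compared. The planned gene and marker lists needed gene names and were not used. The comparison, lists and tests were chosen with earlier results of these data known, and the gene lists set by stele, epidermis, endodermis or root cap values were chosen after the data were seen.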

Additional observations from a re-analysis of the deposited data

How the results depend on the processing

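Of 192 counts of calls recomputed under the alternatives, 133 stayed within 1.5 times the reported count and 59 did not. Of 654 recomputed values of named genes, 80 lost their call and 0 changed direction. These genes were named for large changes without overlap between libraries, which left little room for a change of direction. The causes were not tested.

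Leaving out single libraries gave 773 to 2894 calls against the mean of the other 4 tissues, 0 to 260 against the dye-sorted mean and 3594 to 6652 against the reporter-sorted mean. It gave 38 to 600 against epidermis, 2275 to 3220 against endodermis, 414 to 1224 against stele and 8109 to 10474 against quiescent center. Against unsorted protoplasts it gave 476 to 2278, and beyond each tissue singly 0 to 33. With 1 library left out, the pair that remained was assumed to vary like the other groups.

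Without the quiescent center the counts were 1301 against the mean, 221 against the dye-sorted mean, 674 against epidermis, 2085 against stele, 2970 against protoplasts and 19 beyond each tissue. With a pseudocount of 10 they were 99 against the dye-sorted mean, 421 against epidermis, 1852 against stele and 12 beyond each. With edgeR they were 25, 626 against stele, 658 against protoplasts and 3 beyond each. With DESeq2 they were 237 against the dye-sorted mean, 1116 against epidermis, 2358 against protoplasts and 17 beyond each. The 15 sorted libraries alone gave 16, 168 and 1 for the dye-sorted mean, epidermis and beyond each. The compared groups alone gave 210 against the dye-sorted mean, 3264 against the reporter-sorted mean, 3 against epidermis, 5059 against quiescent center and 0 beyond each. Weights per group gave 766 against epidermis, 2213 against stele, 5113 against quiescent center, 998 against protoplasts and 12 beyond each. No filter gave 11 beyond each. For the mean of 4 the compared groups are the 15 sorted libraries, and without the quiescent center the reporter-sorted mean is the endodermis alone.

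Deviations of same-numbered samples correlated at −0.0025 on average in 84 pairs of all libraries, 14 of them over 0.1. In the 30 pairs of sorted libraries the average was 0.0314 and 11 were over 0.1, so the numbers were not taken to pair the samples, and the best partner had the same number for 7 of 24 libraries. Adding the replicate block gave counts of 1992 against the mean of 4, 33 against the dye-sorted mean, 5506 against the reporter-sorted mean, 219 against epidermis, 3098 against endodermis, 1037 against stele, 10061 against quiescent center, 1336 against protoplasts and 4 beyond each.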
